A study of Mus musculus with 6 samples.

Results

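The genes described here are 49 mouse genes whose products drive the passage from G2 into mitosis and carry out mitosis and cytokinesis. They were taken by gene symbol from a list that covers Cdk1 and its cyclins, the mitotic kinases, the spindle checkpoint and the anaphase-promoting complex, the kinetochore, the spindle, cytokinesis, the condensed chromosome, and the transcription factors Foxm1 and Mybl2. All 49 were found among the 36172 genes of the deposited table. Every member had at least 4 RPKM (the number of reads on a gene scaled to its transcript length and to the mapped reads of the library) in each of the 6 libraries, from the 6.04 RPKM of Pttg1 to the 221 RPKM of Ube2c, so no member entered the test through only 1 genotype. The test covered the 10042 genes that reached 4 RPKM in at least 1 library.

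Poly(A) RNA was sequenced from organoids, which are 3-dimensional cultures of tumor epithelial cells, grown from small intestinal tumors of C57BL/6 mice aged 15 to 20 weeks. All 3 genotypes carried the Apc truncation at codon 716 together with loss of heterozygosity of Apc. They differed in Trp53, which was wild type (Trp53+/+, called +/+ here), homozygous for an unrecombined allele with a stop cassette between lox sites ahead of R270H, which acts as a null (Trp53flox/flox, flox/flox), or homozygous for the missense mutation R270H (Trp53R270H/R270H, R270H/R270H), whose expression was switched on in intestinal epithelium by tamoxifen through the villin-CreER transgene. By the paper's definition flox/flox mice carry villin-CreER as well and become R270H/R270H on tamoxifen. The comparison of these 2 genotypes thus also differs in tamoxifen treatment, whose part was not tested. Each genotype had 2 libraries, numbered 1 and 2. The sources used here do not say whether the 2 libraries of a genotype came from separate mice or tumors. The p-values therefore measure only the spread between these libraries, which may be technical, and 2 libraries against 2 could not give an exact two-sided permutation p below 0.333.

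Trp53 itself stood at 75.9 and 74.3 RPKM in the +/+ libraries, 1.73 and 2.48 RPKM in flox/flox and 72.8 and 82.7 RPKM in R270H/R270H, so the flox/flox libraries matched their label, while an RPKM value cannot show the missense base. Cdkn1a, the p53 target that encodes the Cdk inhibitor p21, fell from 110.0 and 122 RPKM in +/+ to 11.8 and 26.95 RPKM in flox/flox and 31.9 and 29.5 RPKM in R270H/R270H. The cultures read as epithelium. The 8 epithelial markers summed to 2864 to 2920 RPKM in +/+, 4228 to 4557 RPKM in flox/flox and 2327 to 2506 RPKM in R270H/R270H. The sum, most of it Krt8, Krt18 and Krt19, was thus highest in flox/flox. These keratins, Cdx2 and Cldn7 were above the other genotypes in both flox/flox libraries, and Vil1, Cdh1 and Epcam were not. Of the other cell types, 3 of 6 fibroblast markers (Col1a2, Col3a1 and Lum), 4 of 5 immune markers and 2 of 3 endothelial markers stood at the table's floor of 1 RPKM in all 6 libraries. The other fibroblast markers, Col1a1, Pdgfra and Dcn, were above it in flox/flox replicate 2 alone, at 2.44, 1.23 and 1.05 RPKM. The remaining immune and endothelial markers were above it in both +/+ libraries, Cd68 at 10.2 and 9.87 RPKM in +/+, 2.06 and 11.1 RPKM in flox/flox and 2.22 and 2.41 RPKM in R270H/R270H, and Cdh5 at 8.88 and 9.35, 1 and 3.30, and 1.04 and 1 RPKM. Markers of non-dividing intestinal cells differed with genotype. The 5 Paneth cell markers summed to 1338 to 1690 RPKM in +/+, 561 to 573 RPKM in flox/flox and 386 to 421 RPKM in R270H/R270H, the 6 goblet cell entries to 148 to 186, 56.6 to 123 and 71.9 to 79.7 RPKM, and the 6 enterocyte markers, of which Lct, Sis and Apoa1 were at the floor, to 39.3 to 49.8, 8.31 to 19.2 and 22.6 to 32.8 RPKM. Among the enterocyte markers, Fabp2 was lower in both mutants, at 27.6 and 31.4, 14.2 and 3.11, and 12.1 and 10.8 RPKM. Alpi and Fabp1 were below +/+ in both flox/flox libraries, while their R270H/R270H libraries overlapped with +/+. The 5 intestinal stem cell markers summed to 178 to 202, 181 to 214 and 243 to 280 RPKM, but they did not move together. Axin2 stood at 136 and 130 RPKM in +/+, 80.9 and 88.9 RPKM in flox/flox and 171 and 191 RPKM in R270H/R270H. Ascl2 went the other way, at 21.1 and 17.1, 38.8 and 28.4, and 8.16 and 10.8 RPKM. Olfm4 and Smoc2 were higher in both libraries of each mutant genotype than in both +/+ libraries, and Lgr5 overlapped. Olfm4 stood at 1 and 1 RPKM in +/+, 1.11 and 3.04 RPKM in flox/flox and 7.98 and 13.1 RPKM in R270H/R270H. Smoc2 stood at 26.9 and 19.3, 79.0 and 43.4, and 45.3 and 52.7 RPKM. The part of these markers in the results was not tested, and in bulk RNA a different share of dividing cells cannot be told apart from a different amount of each transcript per dividing cell. The paper labelled newly made DNA with EdU in organoids of these 3 genotypes. It reported that their proliferation rates did not differ significantly. The flox/flox libraries were the least alike, with a typical SD between the libraries of a genotype over these members of 0.19 on the log2 scale, against 0.03 in +/+ and 0.04 in R270H/R270H. The table holds no read counts, and the depth is not given in the sources used here.

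Entry into mitosis is driven by Cdk1 bound to cyclin B, which is held back by phosphorylation until Cdc25 phosphatases remove it, and exit follows when the anaphase-promoting complex with Cdc20 destroys cyclin B and securin. Most of these genes are transcribed late in the cell cycle by the MuvB core with B-Myb (Mybl2) and FoxM1, and in resting or arrested cells MuvB joins the DREAM complex, with p130 or p107 and E2F4, that represses them. Active p53 raises p21, which lowers Cdk activity and so favours DREAM. DREAM and the activators reach many late cell cycle promoters through a short element called the cell cycle genes homology region (CHR), often near CCAAT boxes bound by NF-Y. In the intestine dividing cells are found in the crypt, and Apc loss keeps tumor epithelium in a crypt-like dividing state.

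The promoter sequences of the 7 members with the largest log2 rise in flox/flox against +/+ are shown because they differ in the elements just named. Each line runs 5′ to 3′ on the strand of the gene from 100 bases before to 30 bases after the RefSeq transcription start on GRCm38.p6, and capitals mark the letters TTTGAA or TTTAAA (CHR) and CCAAT on either strand, that is also TTCAAA and ATTGG, while TTTAAA is its own reverse complement. The windows are those of Plk1 (Entrez Gene 18817, chr7:122159335-122159464, plus strand), Cdc20 (Entrez Gene 107995, chr4:118437314-118437443, minus strand), Cenpa (Entrez Gene 12615, chr5:30666786-30666915, plus strand), Ube2c (Entrez Gene 68612, chr2:164769829-164769958, plus strand), Ccnb2 (Entrez Gene 12442, chr9:70421525-70421654, minus strand), Mybl2 (Entrez Gene 17865, chr2:163054535-163054664, plus strand) and Pttg1 (Entrez Gene 30939, chr11:43425952-43426081, minus strand).
Plk1: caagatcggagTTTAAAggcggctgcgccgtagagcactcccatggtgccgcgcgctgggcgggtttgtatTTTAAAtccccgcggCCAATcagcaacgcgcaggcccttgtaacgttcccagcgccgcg
Cdc20: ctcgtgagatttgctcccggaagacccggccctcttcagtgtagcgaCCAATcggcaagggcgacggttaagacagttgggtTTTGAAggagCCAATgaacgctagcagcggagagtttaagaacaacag
Cenpa: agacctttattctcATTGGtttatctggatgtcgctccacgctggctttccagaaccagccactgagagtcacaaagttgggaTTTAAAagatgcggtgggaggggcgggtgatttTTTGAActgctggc
Ube2c: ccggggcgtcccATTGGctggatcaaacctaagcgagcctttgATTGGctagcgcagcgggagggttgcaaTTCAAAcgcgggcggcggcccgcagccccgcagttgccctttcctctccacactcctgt
Ccnb2: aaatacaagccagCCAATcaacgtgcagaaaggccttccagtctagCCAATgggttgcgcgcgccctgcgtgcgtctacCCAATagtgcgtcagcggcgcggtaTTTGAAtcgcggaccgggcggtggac
Mybl2: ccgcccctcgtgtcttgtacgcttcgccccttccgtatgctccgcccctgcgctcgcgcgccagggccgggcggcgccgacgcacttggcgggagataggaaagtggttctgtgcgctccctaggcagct
Pttg1: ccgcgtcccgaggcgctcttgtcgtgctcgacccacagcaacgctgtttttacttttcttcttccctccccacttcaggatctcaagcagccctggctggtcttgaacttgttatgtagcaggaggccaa
Plk1 and Cenpa held CHR letters at 2 places in these windows and Cdc20, Ube2c and Ccnb2 at 1, each beside at least 1 CCAAT. Mybl2 and Pttg1 held neither in the windows shown, and these 2 windows sit apart from the GENCODE gene starts. The RefSeq start of Mybl2 lies 52 bases upstream of the GENCODE start, so its window ends before it, and that of Pttg1 lies 270 bases inside the GENCODE gene, so that its window holds no sequence upstream of the outermost start. The other 5 starts differed from GENCODE by 4 to 109 bases, the most for Cenpa. The Cenpa start lies inside the GENCODE gene, so its window too holds no sequence upstream of the outermost start. RefSeq promoters of 300 bases, from 250 before to 50 after the start, were matched for 41 of the 49 members in 43 windows, of which 35 ended in a GENCODE transcript of their gene. Of the 43 windows 35 (81.4%) held the CHR letters, against 27.6% of all 32851 promoter windows, and 32 (74.4%) held CCAAT, against 37.4%. Both were present in 28 (65.1%), against 10.7% of all windows. Within 50 bases of the start the CHR letters stood in 67.4% of the members' windows and 8.28% of all windows. The letters stood in 10 of 14 windows (71.4%) of members called higher in flox/flox and in 25 of 29 windows (86.2%) of the other members. A match is a description of letters and not of binding.

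Most members had a higher mean without p53. In flox/flox, 43 of the 49 genes had a higher mean of log2(RPKM + 1) than in +/+. Limma, a moderated linear model of log2(RPKM + 1), called 17 higher and 1, Ckap2, lower. Calls were made at a Benjamini-Hochberg adjusted p under 0.05 over all genes tested. Of all genes tested, 4.38% were called higher and 6.90% lower. The median log2 change of the members was 0.43, against -0.02 for all genes tested. Both flox/flox libraries lay above both +/+ libraries for 39 members (79.6%), against 30.6% of all genes tested, and below them for Ckap2 alone, against 33.9%. The genes called higher were Pttg1, Cenpa, Mybl2, Cdc20, Ube2c, Plk1, Ccnb2, Birc5, Foxm1, Aurka, Cdc25b, Kif20a, Ccnb1, Nek2, Dlgap5, Plk4 and Racgap1.

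With p53R270H the median change of these genes from +/+ was smaller than in flox/flox, though not for every member. In R270H/R270H against +/+, 37 of the 49 had a higher mean, with a median log2 change of 0.22 against 0.03 for all genes tested. Pttg1 and Foxm1 were called higher and Ckap2 lower, which is 2 and 1 of 49 members, while 5.86% of all genes tested were called higher and 6.36% lower, so the share of members called was not above that of the table. Both R270H/R270H libraries lay above both +/+ libraries for 36 members, against 44.2% of all genes tested, and below them for 7 members, against 37.6%. The 3 genotypes share 1 estimate of the spread, to which the flox/flox pair adds most. A fit of the R270H/R270H and +/+ libraries alone called 27 members higher and 4 lower, and 31.2% of all genes tested higher and 25.7% lower.

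Set directly against flox/flox, most members had a lower mean in R270H/R270H. The mean was lower for 41 of 49 members, 14 were called lower and 0 were called higher by limma, with 1 higher member among the 25 with an unadjusted p under 0.05. Of all genes tested, 11.0% were called lower and 13.6% higher. The median log2 change of the members was -0.32, against 0.03 for all genes tested. Both R270H/R270H libraries lay below both flox/flox libraries for 35 members, against 31.2% of all genes tested, and above them for Kif11, Kif15 and Smc2, against 36.8%. The genes called lower were Plk1, Ube2c, Cks2, Mybl2, Cdc20, Cenpa, Aurkb, Ccnb2, Ccnb1, Cdc25b, Ncapg, Kif20a, Ndc80 and Ect2. For 23 members (46.9%) the libraries stood in the order +/+, R270H/R270H, flox/flox with no overlap, an order that 5.64% of all genes tested showed. The 3 comparisons share libraries, so their values are given side by side and not as separate evidence.

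**Figure D1:**
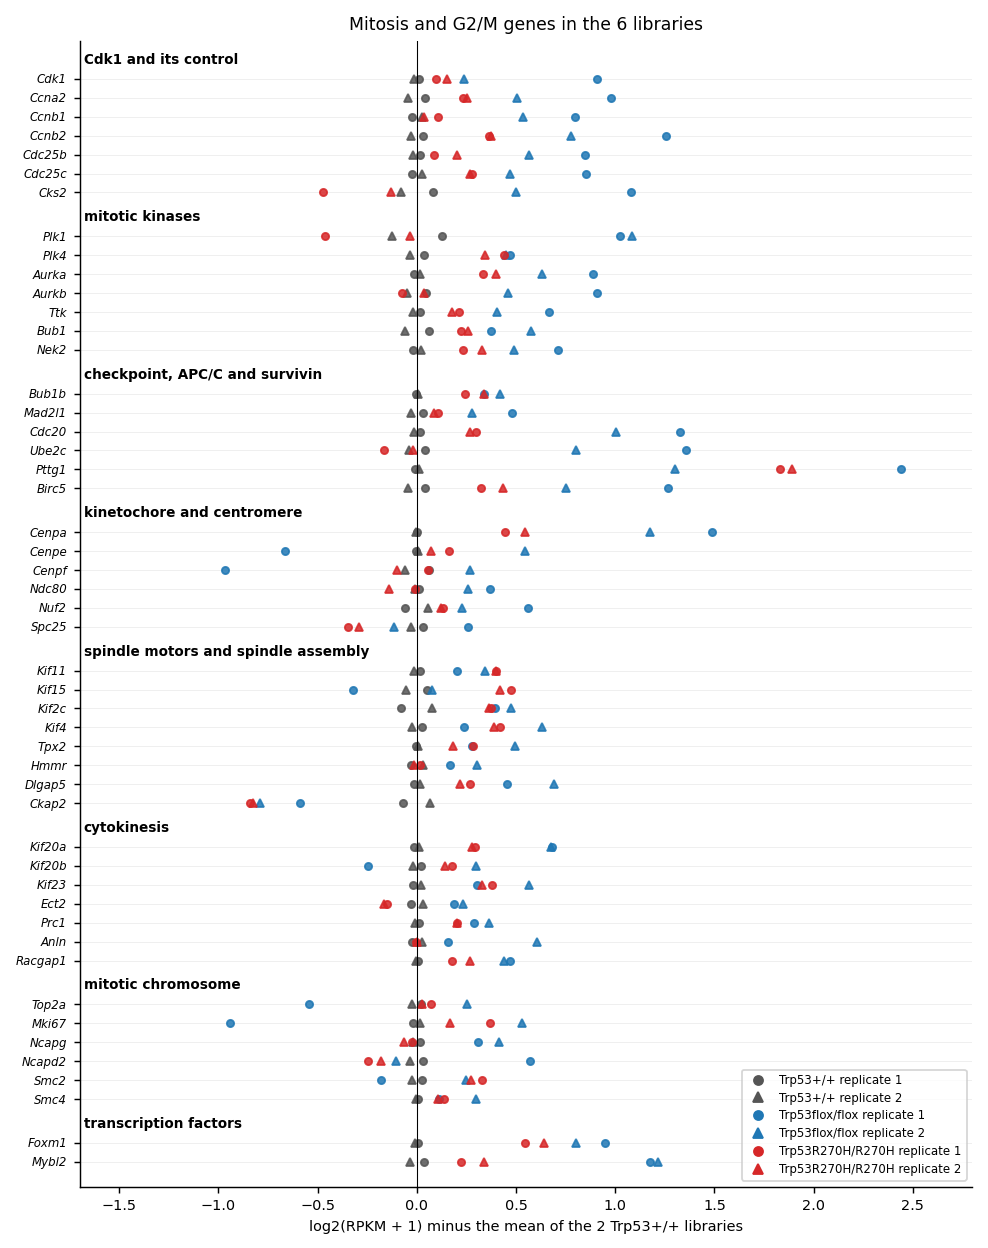
Each row is 1 of the 49 genes, grouped by role, and each symbol is 1 library, plotted as log2(RPKM + 1) minus the mean of the 2 Trp53+/+ libraries (grey, Trp53+/+; blue, Trp53flox/flox; red, Trp53R270H/R270H; circles, replicate 1; triangles, replicate 2). The flox/flox symbols lie to the right for most genes, the R270H/R270H symbols lie between them and the +/+ symbols for 23 genes, and Ckap2 lies to the left in both.

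**Figure D2:**
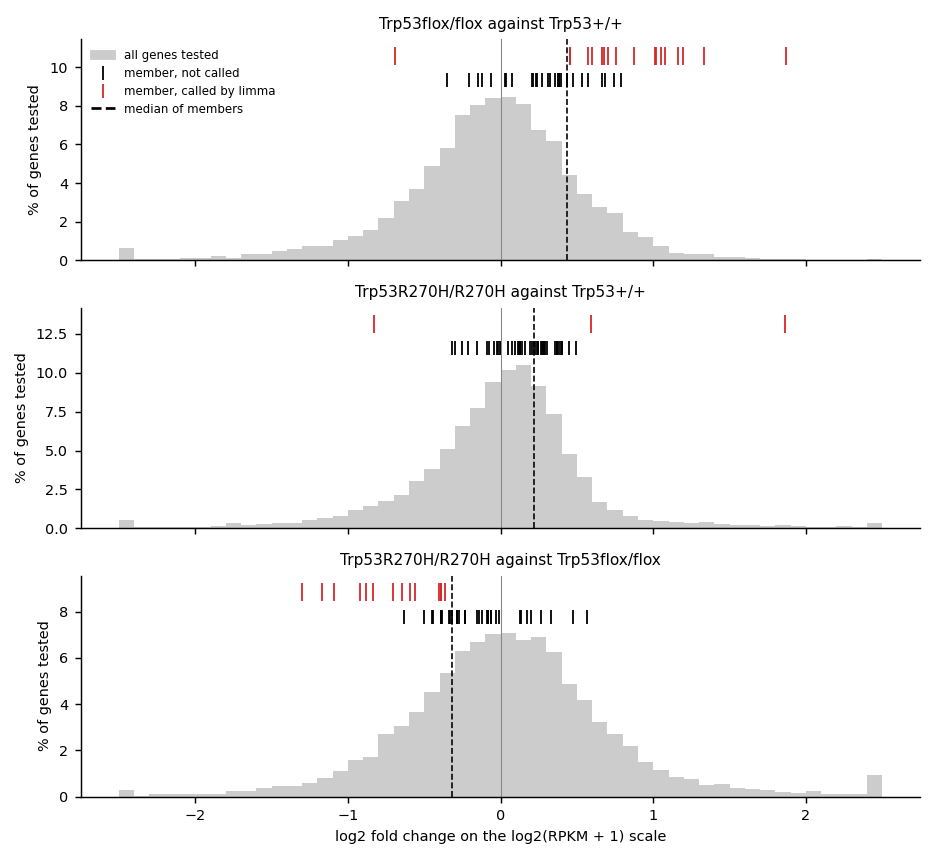
Grey bars give the percent of all 10042 genes tested in each step of 0.1 of the log2 fold change, with values beyond 2.5 in either direction placed in the end bars, and ticks give the 49 members in the 3 comparisons (red, called by limma; black, not called). The dashed line marks the median of the members, 0.43, 0.22 and -0.32 from top to bottom.

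These counts depended on which libraries were in the fit. Without any 1 of the 2 +/+ or the 2 R270H/R270H libraries, limma called 0 members higher in flox/flox against +/+ (19 to 31 at an unadjusted p under 0.05), and the adjusted p-values of the 18 members called with all libraries rose to between 0.0625 and 0.368 with the same direction in all 18. The table as a whole lost its calls with them, from 1133 genes to between 8 and 42. A fit of the flox/flox and +/+ libraries alone likewise called 0 members (31 higher and 1 lower at an unadjusted p under 0.05) and 47 genes in all. Without flox/flox replicate 1, 41 members were called higher and 1 lower, while 19.8% of all genes tested were called higher and 22.1% lower. Without flox/flox replicate 2, 38 members were called higher and 7 lower, while 32.2% and 37.1% of all genes tested were. Each set included all 17 of the higher calls. For R270H/R270H against flox/flox the counts of members called, higher as well as lower, also moved with the library left out. So did the counts over all genes tested. For R270H/R270H against +/+ limma called 0 without a +/+ or R270H/R270H library (2 to 4 higher and 1 lower at an unadjusted p under 0.05), and 27 higher and 4 lower without a flox/flox library, where 31.6% or 31.8% of all genes tested were called higher and 26.2% or 26.0% lower. A lone library left in a genotype was assumed to vary like the others. The median log2 change of the members in flox/flox against +/+ stayed between 0.43 and 0.48 when libraries were left out, 0.47 with replicate 1 alone and 0.48 with replicate 2 alone.

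Among Cdk1 and the proteins that control it, Ccnb1, Ccnb2 and Cdc25b were called higher in flox/flox. All 7 genes of this group had both flox/flox libraries above both +/+ libraries, and 4 were called lower in R270H/R270H against flox/flox. Cdk1, the kinase that starts mitosis, stood at 54.97 and 54.1 RPKM in the +/+ libraries, 103 and 64.4 RPKM in flox/flox and 58.4 and 60.7 RPKM in R270H/R270H. Its flox/flox libraries were far apart and it was not called (log2 change 0.57 ± 0.23 (SE), adjusted p=0.145). Ccnb1, the main cyclin B, stood at 62.7 and 64.9 RPKM in the +/+ libraries, 111 and 92.96 RPKM in flox/flox and 68.8 and 65.5 RPKM in R270H/R270H. It was 1.60 times the +/+ mean in flox/flox (log2 change 0.67 ± 0.12 (SE), adjusted p=0.0342) and 0.657 times the flox/flox mean in R270H/R270H (log2 change -0.59 ± 0.12 (SE), adjusted p=0.0278), with the +/+ and R270H/R270H values close together. Ccnb2, the other cyclin B, stood at 44.2 and 42.3 RPKM in the +/+ libraries, 104 and 74.9 RPKM in flox/flox and 55.9 and 56.2 RPKM in R270H/R270H. Its libraries stood in the order +/+, R270H/R270H, flox/flox, flox/flox was 2.08 times the +/+ mean (log2 change 1.02 ± 0.17 (SE), adjusted p=0.0298), and R270H/R270H was called lower than flox/flox (log2 change -0.65 ± 0.17 (SE), adjusted p=0.0494).

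Cdc25b, a phosphatase that removes the inhibitory phosphates from Cdk1, stood at 23.4 and 22.8 RPKM in the +/+ libraries, 42.4 and 34.8 RPKM in flox/flox and 24.6 and 26.7 RPKM in R270H/R270H. The flox/flox libraries were above the other 4, which were close together (log2 change 0.71 ± 0.13 (SE), adjusted p=0.0342 against +/+, and log2 change -0.56 ± 0.13 (SE), adjusted p=0.0349 for R270H/R270H against flox/flox). Cks2, a small protein that binds Cdk1, stood at 76.5 and 68.4 RPKM in the +/+ libraries, 154 and 103 RPKM in flox/flox and 51.8 and 66.1 RPKM in R270H/R270H. It was high in flox/flox, most so in replicate 1, and its R270H/R270H libraries were below both +/+ libraries. R270H/R270H was called lower than flox/flox (log2 change -1.09 ± 0.23 (SE), adjusted p=0.0297), and flox/flox against +/+ missed the threshold (log2 change 0.79 ± 0.23 (SE), adjusted p=0.0853). Ccna2 (cyclin A2) and Cdc25c kept the order +/+, R270H/R270H, flox/flox with no overlap and were not called, with log2 changes of 0.74 and 0.66 in flox/flox against +/+ and adjusted p-values of 0.0552 and 0.0536.

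Ccnb1 and Cks2 lie on chromosome 13, where gene expression was low as a whole in R270H/R270H. The median of the 358 genes tested on this chromosome was -0.29 and -0.38 on the log2 scale against the +/+ mean in the 2 R270H/R270H libraries. The other chromosomes that hold members, the only ones examined, had medians between -0.08 and 0.10 in these libraries. In the same way the 651 genes tested on chromosome 5, which holds Cenpa and Ncapg, had a median of 0.29 in flox/flox replicate 1 and 0.02 in replicate 2. The part of these chromosome-wide differences in the values of the 4 members was not tested.

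Of the 7 mitotic kinases, 4 were called higher in flox/flox against +/+, and Plk1 and Aurkb were called lower in R270H/R270H against flox/flox. Plk1, polo-like kinase 1, which acts from mitotic entry to cytokinesis, stood at 32.1 and 26.7 RPKM in the +/+ libraries, 60.5 and 63.1 RPKM in flox/flox and 20.9 and 28.5 RPKM in R270H/R270H. The flox/flox libraries were near to each other and 2.10 times the +/+ mean (log2 change 1.05 ± 0.18 (SE), adjusted p=0.0298), whereas the R270H/R270H libraries overlapped with +/+ and were 0.400 times the flox/flox mean (log2 change -1.30 ± 0.18 (SE), adjusted p=0.0117). This was the largest fall of any member between these 2 genotypes. Aurka, the Aurora kinase of the spindle poles, stood at 39.3 and 40.3 RPKM in the +/+ libraries, 74.5 and 62.2 RPKM in flox/flox and 50.4 and 52.9 RPKM in R270H/R270H. It rose from +/+ to flox/flox (log2 change 0.76 ± 0.12 (SE), adjusted p=0.0273), and the R270H/R270H libraries lay between (log2 change 0.37 ± 0.12 (SE), adjusted p=0.109 against +/+). Aurkb, the Aurora kinase of the centromere, stood at 42.1 and 39.4 RPKM in the +/+ libraries, 77.3 and 56.3 RPKM in flox/flox and 38.6 and 41.8 RPKM in R270H/R270H. Here the R270H/R270H libraries overlapped with +/+ and were called lower than flox/flox (log2 change -0.70 ± 0.17 (SE), adjusted p=0.0397), while flox/flox against +/+ missed the threshold (log2 change 0.68 ± 0.17 (SE), adjusted p=0.063).

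Nek2, a kinase that separates the centrosomes, stood at 21.6 and 22.2 RPKM in the +/+ libraries, 36.5 and 31.2 RPKM in flox/flox and 25.9 and 27.8 RPKM in R270H/R270H, with no overlap between the 3 genotypes (log2 change 0.60 ± 0.12 (SE), adjusted p=0.037 in flox/flox against +/+). Plk4, the kinase that starts centriole duplication, stood at 10.5 and 9.95 RPKM in the +/+ libraries, 14.5 and 14.3 RPKM in flox/flox and 14.2 and 13.3 RPKM in R270H/R270H. It was the kinase in which the 2 mutant genotypes were nearest, with R270H/R270H at 0.953 times the flox/flox mean and log2 changes against +/+ of 0.46 ± 0.10 in flox/flox (adjusted p=0.0488) and 0.39 ± 0.10 in R270H/R270H (adjusted p=0.0639). Bub1, a kinase of the spindle checkpoint, stood at 18.8 and 17.2 RPKM in the +/+ libraries, 23.6 and 27.3 RPKM in flox/flox and 21.2 and 21.7 RPKM in R270H/R270H. Its order was that of Nek2, and it was not called (log2 change 0.47 ± 0.12 (SE), adjusted p=0.0602 in flox/flox against +/+). Ttk, the checkpoint kinase Mps1, had a log2 change of 0.54 (adjusted p=0.0538).

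Of the 6 genes of the checkpoint, the anaphase-promoting complex and survivin, Pttg1, Cdc20, Ube2c and Birc5 were called higher in flox/flox against +/+. Pttg1, securin, which holds the protease separase inactive until anaphase, stood at 6.04 and 6.13 RPKM in the +/+ libraries, 37.4 and 16.4 RPKM in flox/flox and 24.2 and 25.3 RPKM in R270H/R270H. The 4 libraries without wild-type p53 were all above the 2 +/+ libraries, and the flox/flox pair was the most uneven, with the R270H/R270H values inside its range. Mean levels were 4.42 times the +/+ mean in flox/flox (log2 change 1.87 ± 0.36 (SE), adjusted p=0.0377) and 4.06 times in R270H/R270H (log2 change 1.86 ± 0.36 (SE), adjusted p=0.0367). Between flox/flox and R270H/R270H the sign turned with the library used, from a log2 change of -0.01 with both to 0.56 (adjusted p=0.00336) without flox/flox replicate 1. Pttg1 was the member of lowest level in +/+ and the only one with a change of more than 4 times.

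Cdc20, the activator that turns the anaphase-promoting complex on, stood at 32.96 and 32.3 RPKM in the +/+ libraries, 83.3 and 66.4 RPKM in flox/flox and 40.4 and 39.4 RPKM in R270H/R270H. It was 2.29 times the +/+ mean in flox/flox (log2 change 1.16 ± 0.13 (SE), adjusted p=0.0136), and R270H/R270H, which was just above +/+ in both libraries, was 0.533 times the flox/flox mean (log2 change -0.88 ± 0.13 (SE), adjusted p=0.0148). Ube2c, the ubiquitin-conjugating enzyme that works with the same complex, stood at 88.1 and 83.5 RPKM in the +/+ libraries, 221 and 150.4 RPKM in flox/flox and 76.5 and 84.5 RPKM in R270H/R270H. It was 2.16 times the +/+ mean in flox/flox (log2 change 1.08 ± 0.20 (SE), adjusted p=0.035), and the R270H/R270H libraries overlapped with +/+ and were called lower than flox/flox (log2 change -1.17 ± 0.20 (SE), adjusted p=0.0188). Birc5, survivin, the subunit that targets Aurora B to the centromere, stood at 16.7 and 15.7 RPKM in the +/+ libraries, 40.4 and 27.97 RPKM in flox/flox and 20.6 and 22.2 RPKM in R270H/R270H. Its 3 genotypes did not overlap (log2 change 1.01 ± 0.19 (SE), adjusted p=0.0351 in flox/flox against +/+, and log2 change -0.63 ± 0.19 (SE), adjusted p=0.0635 for R270H/R270H against flox/flox). Bub1b and Mad2l1, which form the checkpoint signal that restrains Cdc20, differed less, with log2 changes of 0.38 and 0.38 in flox/flox against +/+ (adjusted p=0.0648 and 0.0845).

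**Figure D3:**
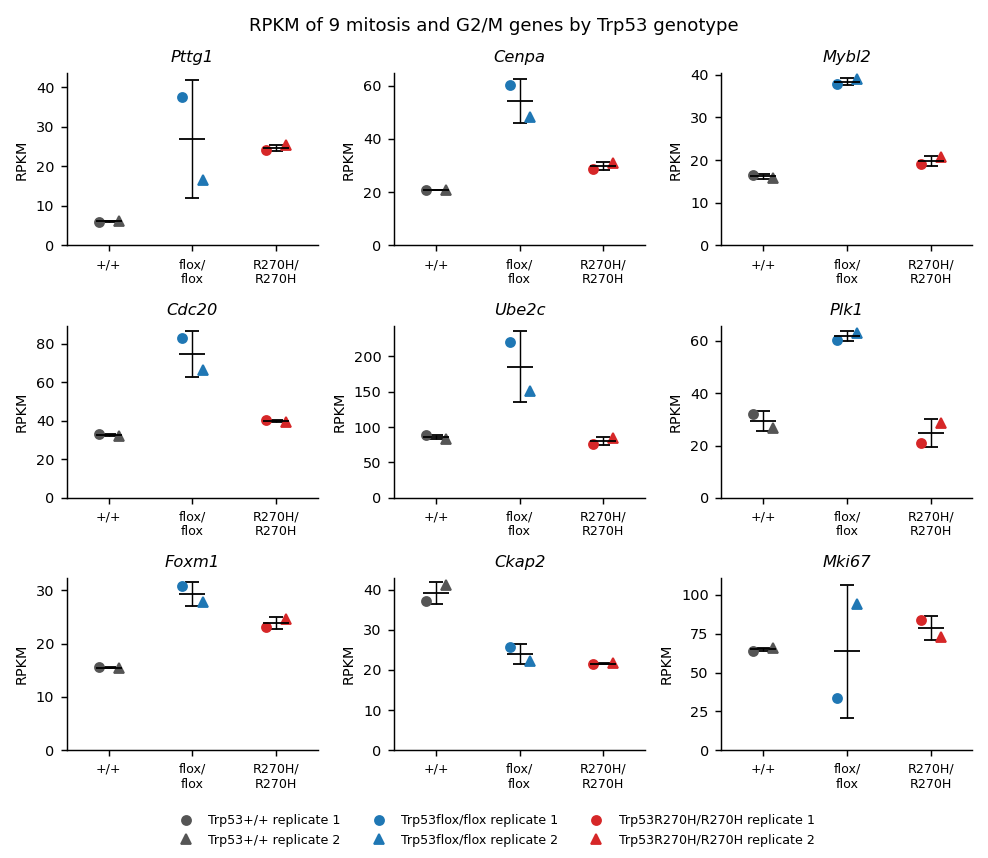
The RPKM of 9 members is shown in each library (circles, replicate 1; triangles, replicate 2), with horizontal lines at the mean and bars of 1 SD over the 2 libraries of each Trp53 genotype. Mybl2, Plk1, Cdc20 and Ube2c are near the +/+ level in R270H/R270H and well above it in flox/flox, Pttg1 is high in both mutants, Ckap2 is low in both, and the flox/flox libraries of Mki67 lie on either side of the other genotypes.

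The kinetochore genes were mixed. Cenpa, the histone H3 variant that marks the centromere, stood at 20.9 and 20.8 RPKM in the +/+ libraries, 60.1 and 48.3 RPKM in flox/flox and 28.7 and 30.9 RPKM in R270H/R270H. It was 2.60 times the +/+ mean in flox/flox (log2 change 1.33 ± 0.13 (SE), adjusted p=0.0122), it was 0.550 times the flox/flox mean in R270H/R270H (log2 change -0.84 ± 0.13 (SE), adjusted p=0.0166), and against +/+ R270H/R270H missed the threshold (log2 change 0.49 ± 0.13 (SE), adjusted p=0.073). Ndc80, a subunit of the complex that grips microtubules, stood at 22.3 and 22.05 RPKM in the +/+ libraries, 28.9 and 26.8 RPKM in flox/flox and 22.01 and 20.1 RPKM in R270H/R270H. R270H/R270H was called lower than flox/flox (log2 change -0.39 ± 0.10 (SE), adjusted p=0.0488), and its libraries were below both +/+ libraries. Nuf2 and Spc25 of the same complex were not called in any comparison, and Spc25 was lower in R270H/R270H, at 10.1 and 10.6 RPKM against 13.5 and 12.9 RPKM in +/+. Cenpf and Cenpe, the members with the longest transcripts along with Mki67, were split by library. Cenpf stood at 19.1 and 17.5 RPKM in the +/+ libraries, 8.88 and 22.3 RPKM in flox/flox and 19.1 and 17.03 RPKM in R270H/R270H, and Cenpe at 18.2 and 18.3 RPKM in the +/+ libraries, 11.1 and 27.1 RPKM in flox/flox and 20.5 and 19.2 RPKM in R270H/R270H. In both, flox/flox replicate 1 was the lowest of the 6 libraries and replicate 2 the highest.

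Of the 8 spindle genes, Ckap2 and Dlgap5 were called in at least 1 comparison. Ckap2, a microtubule-stabilizing protein of the spindle, was the only member called lower in a mutant than in +/+, and it was called in both. It stood at 37.3 and 41.1 RPKM in the +/+ libraries, 25.7 and 22.2 RPKM in flox/flox and 21.4 and 21.7 RPKM in R270H/R270H. No mutant library overlapped with +/+, the means were 0.611 times the +/+ mean in flox/flox (log2 change -0.69 ± 0.12 (SE), adjusted p=0.0298) and 0.550 times in R270H/R270H (log2 change -0.83 ± 0.12 (SE), adjusted p=0.0167), and R270H/R270H against flox/flox was not called (adjusted p=0.38). Dlgap5, which stabilizes spindle fibres at the kinetochore, stood at 13.6 and 13.97 RPKM in the +/+ libraries, 19.3 and 22.9 RPKM in flox/flox and 16.8 and 16.2 RPKM in R270H/R270H (log2 change 0.57 ± 0.12 (SE), adjusted p=0.0418 in flox/flox against +/+). The motors Kif11, Kif15, Kif2c and Kif4 were not called in any comparison, and Kif11 and Kif15 were the members of this group with both R270H/R270H libraries above both flox/flox libraries. Kif15 stood at 12.1 and 11.2 RPKM in the +/+ libraries, 9.12 and 12.3 RPKM in flox/flox and 16.6 and 15.9 RPKM in R270H/R270H (log2 change 0.57 ± 0.16 (SE), adjusted p=0.0549 for R270H/R270H against flox/flox). Tpx2, which activates Aurora A, and Hmmr had log2 changes of 0.38 and 0.24 in flox/flox against +/+.

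Among the 7 cytokinesis genes, Kif20a and Racgap1 were called higher in flox/flox against +/+, and Kif20a and Ect2 lower in R270H/R270H against flox/flox. Kif20a, the kinesin that brings Plk1 to the central spindle, stood at 29.3 and 29.8 RPKM in the +/+ libraries, 47.9 and 47.7 RPKM in flox/flox and 36.4 and 36.1 RPKM in R270H/R270H. Its replicates were close in each genotype and the 3 genotypes did not overlap (log2 change 0.68 ± 0.09 (SE), adjusted p=0.0181 in flox/flox against +/+, and log2 change -0.39 ± 0.09 (SE), adjusted p=0.0336 for R270H/R270H against flox/flox). Racgap1, a subunit of centralspindlin, stood at 45.8 and 45.5 RPKM in the +/+ libraries, 63.6 and 62.2 RPKM in flox/flox and 51.7 and 55.1 RPKM in R270H/R270H, in the same order (log2 change 0.45 ± 0.09 (SE), adjusted p=0.041 in flox/flox against +/+). Ect2, the exchange factor that activates RhoA at the cleavage furrow, stood at 68.03 and 71.01 RPKM in the +/+ libraries, 79.2 and 81.9 RPKM in flox/flox and 62.6 and 61.9 RPKM in R270H/R270H. It was the lowest in R270H/R270H (log2 change -0.37 ± 0.09 (SE), adjusted p=0.0417 against flox/flox). Kif23 and Prc1 had positive log2 changes of 0.43 and 0.33 in flox/flox against +/+ (adjusted p=0.0771 and 0.0797), and Kif20b and Anln were not called in any comparison.

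The genes of the mitotic chromosome, which include common proliferation markers, were not called in either mutant against +/+. Mki67, which encodes Ki-67, stood at 64.1 and 65.8 RPKM in the +/+ libraries, 33.3 and 94.04 RPKM in flox/flox and 84.1 and 72.98 RPKM in R270H/R270H. Its mean ± SD was 64.9 ± 1.18 in +/+, 63.7 ± 42.9 in flox/flox and 78.5 ± 7.86 in R270H/R270H (n = 2 each), and flox/flox replicate 1 was the lowest and replicate 2 the highest library. Top2a, the topoisomerase that untangles sister chromatids, stood at 168 and 163 RPKM in the +/+ libraries, 113 and 197 RPKM in flox/flox and 174 and 168 RPKM in R270H/R270H, with the same split. The sign of flox/flox against +/+ followed the library in both genes. It was -0.21 for Mki67 and -0.15 for Top2a with both flox/flox libraries, and 0.53 (adjusted p=0.0123) and 0.25 (adjusted p=0.0324) without replicate 1. For Top2a, R270H/R270H against flox/flox turned in the same way, from 0.20 to -0.20 (adjusted p=0.0479). Of the 4 condensin genes, Ncapg was called lower in R270H/R270H against flox/flox (log2 change -0.40 ± 0.10 (SE), adjusted p=0.0376), at 25.4 and 24.8 RPKM in the +/+ libraries, 31.3 and 33.8 RPKM in flox/flox and 24.7 and 23.998 RPKM in R270H/R270H, and Ncapd2, Smc2 and Smc4 were not called.

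Both transcription factors of these genes were higher in flox/flox. Mybl2 (B-Myb) stood at 16.6 and 15.7 RPKM in the +/+ libraries, 37.8 and 38.9 RPKM in flox/flox and 19.01 and 20.7 RPKM in R270H/R270H. Its replicates were close, flox/flox was 2.37 times the +/+ mean (log2 change 1.20 ± 0.10 (SE), adjusted p=0.00755), and R270H/R270H was 0.517 times the flox/flox mean (log2 change -0.92 ± 0.10 (SE), adjusted p=0.00674) and not called against +/+ (log2 change 0.28 ± 0.10 (SE), adjusted p=0.127). Foxm1 stood at 15.6 and 15.4 RPKM in the +/+ libraries, 30.9 and 27.8 RPKM in flox/flox and 23.1 and 24.7 RPKM in R270H/R270H. It rose in both, by 1.89 times in flox/flox (log2 change 0.87 ± 0.10 (SE), adjusted p=0.0152) and 1.54 times in R270H/R270H (log2 change 0.59 ± 0.10 (SE), adjusted p=0.0286), and the mutants did not overlap, though their difference was not called (log2 change -0.28 ± 0.10 (SE), adjusted p=0.102).

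The 2 flox/flox libraries differed in a way that followed transcript length. Over the 49 members the Spearman correlation between transcript length and the difference of replicate 1 from replicate 2 was -0.72 in flox/flox, -0.01 in +/+ and 0.51 in R270H/R270H, and over the 9984 genes tested with a length it was -0.54, -0.16 and 0.31. The 20 members with transcripts under 3000 nt stood at a median of 0.90 above the +/+ mean on the log2 scale in flox/flox replicate 1 and 0.52 in replicate 2, and the 29 longer members at 0.29 and 0.42. In R270H/R270H the short members stood at 0.22 and 0.20 and the long members at 0.20 and 0.20. Short members such as Pttg1, Ube2c, Birc5 and Cks2 were thus higher in replicate 1, and long ones such as Cenpf, Cenpe, Mki67 and Top2a were lower. With the trend on length removed within each library, an alternative chosen after the data had been seen, 35 members were called higher and Ckap2 lower in flox/flox against +/+, among them all 17 called before, while 11.3% of all genes tested were called higher and 9.93% lower. In R270H/R270H against flox/flox 22 members were called lower, against 14.9% of all genes tested. In R270H/R270H against +/+ 9 were called higher and 1 lower, against 10.7% and 10.3%, and Foxm1 was no longer called (log2 change 0.53, adjusted p=0.0599). The medians became 0.56, -0.36 and 0.19. The source of the trend was not tested.

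**Figure D4:**
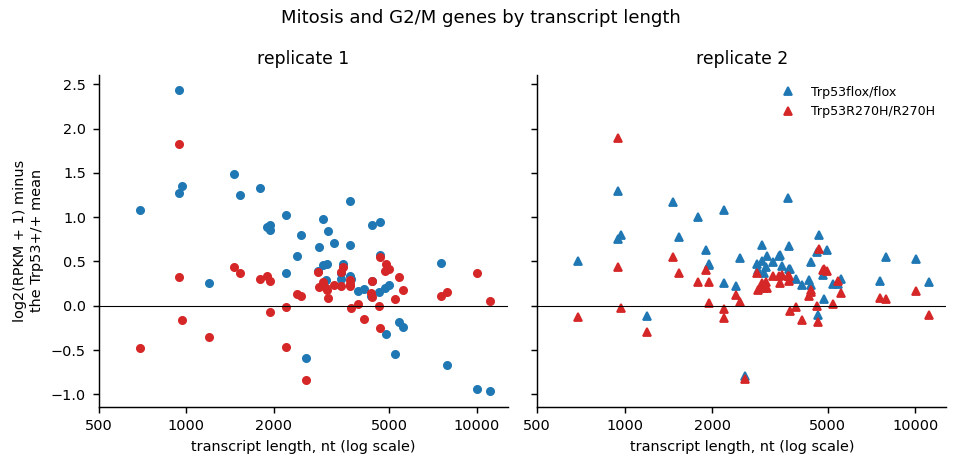
Each symbol is 1 of the 49 genes, with transcript length in nt on a log axis and log2(RPKM + 1) minus the mean of the 2 Trp53+/+ libraries on the vertical axis, for replicate 1 on the left and replicate 2 on the right (blue, Trp53flox/flox; red, Trp53R270H/R270H). In flox/flox replicate 1 the short Pttg1 stands at 2.44 and the long Cenpf at -0.97.

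Other genes of the same pathways were read from 5 lists, chosen like the members with earlier results of these data known. Their counts stand beside the shares of all genes tested. These were 4.38% higher and 6.90% lower in flox/flox against +/+, and 5.86% and 6.36% in R270H/R270H against +/+. In R270H/R270H against flox/flox they were 13.6% and 11.0%. Of 58 other cell cycle regulated mitosis genes tested, 9 were called higher and 2 lower in flox/flox against +/+, 2 higher and 3 lower in R270H/R270H against +/+ by limma, with medians of 0.35 and 0.13. In R270H/R270H against flox/flox limma called 14 lower and 0 higher (26 and 2 at an unadjusted p under 0.05), with a median of -0.29. The 2 lower genes had large changes and are both known to be induced by p53. Psrc1, a microtubule-binding protein, stood at 48.4 and 50.3 RPKM in the +/+ libraries, 6.99 and 6.63 RPKM in flox/flox and 4.37 and 5.03 RPKM in R270H/R270H. Gtse1, a microtubule-associated protein of G2 and S phase, stood at 35.6 and 35.3 RPKM in the +/+ libraries, 17.8 and 16.9 RPKM in flox/flox and 11.4 and 12.2 RPKM in R270H/R270H. Each was low in all 4 mutant libraries, with R270H/R270H below flox/flox (log2 change -0.45 ± 0.11 (SE), adjusted p=0.0393 and log2 change -0.52 ± 0.10 (SE), adjusted p=0.0223). Of those called higher in flox/flox the largest were Kif22, Cdca8 and Lmnb1, with log2 changes of 1.00, 0.90 and 0.89.

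The 34 S phase genes, which replicate DNA before G2, had a median log2 change of 0.57 in flox/flox against +/+, with 9 called higher and 0 lower by limma (20 and 0 at an unadjusted p under 0.05), while in R270H/R270H against +/+ Ccne1 was the only one called and the median was 0.10. Against flox/flox, 7 were called lower in R270H/R270H (median -0.37). Of the 24 genes for subunits of the anaphase-promoting complex and cohesin and their cofactors, limma called 0 in flox/flox against +/+ (median 0.14, with 6 higher and 1 lower at an unadjusted p under 0.05), Stag1 called higher in R270H/R270H against +/+, and Cdc27 and Stag2 higher and Fzr1 lower in R270H/R270H against flox/flox. Of the 17 DREAM, MuvB and E2F genes tested, E2f8, Lin37 and E2f4 were called higher and Rb1 lower in flox/flox against +/+, and E2f8 and E2f2 higher in R270H/R270H against +/+, with medians of -0.0029 and 0.20. In R270H/R270H against flox/flox E2f5, E2f2 and Tfdp2 were called higher and Lin37 and E2f4 lower, with a median of 0.31, the opposite sign to that of the members. In this comparison 13.6% of all genes tested were called higher and 11.0% lower. The few calls here and among the anaphase-promoting complex and cohesin genes are thus not read as traits of the lists. Rb1, the retinoblastoma protein, stood at 18.7 and 20.6 RPKM in the +/+ libraries, 5.42 and 9.36 RPKM in flox/flox and 9.88 and 9.13 RPKM in R270H/R270H, and its R270H/R270H libraries, though below +/+, missed the threshold (adjusted p=0.0595).

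Of 12 genes that hold cells before mitosis, 3 were called lower and 1 higher in flox/flox against +/+, 4 lower in R270H/R270H against +/+, and Ccng1, Gadd45a and Sfn lower in R270H/R270H against flox/flox. Ccng1, Cdkn1a and Btg2 were called lower in both mutants against +/+. Ccng1, cyclin G1, stood at 189.7 and 213 RPKM in the +/+ libraries, 25.9 and 24.6 RPKM in flox/flox and 18.2 and 18.2 RPKM in R270H/R270H. Gadd45a, a stress protein that can inhibit Cdk1, stood at 7.57 and 7.92 RPKM in the +/+ libraries, 4.82 and 7.62 RPKM in flox/flox and 2.85 and 3.04 RPKM in R270H/R270H and was called lower in R270H/R270H only, against +/+ (log2 change -1.15 ± 0.21 (SE), adjusted p=0.0305) and against flox/flox (log2 change -0.84 ± 0.21 (SE), adjusted p=0.0412). Sfn, which encodes 14-3-3σ and retains Cdk1 in the cytoplasm, was higher in flox/flox, at 16.9 and 15.1 RPKM in the +/+ libraries, 28.6 and 32.7 RPKM in flox/flox and 18.6 and 22.7 RPKM in R270H/R270H (log2 change 0.90 ± 0.14 (SE), adjusted p=0.0274 in flox/flox against +/+).

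**Figure D5:**
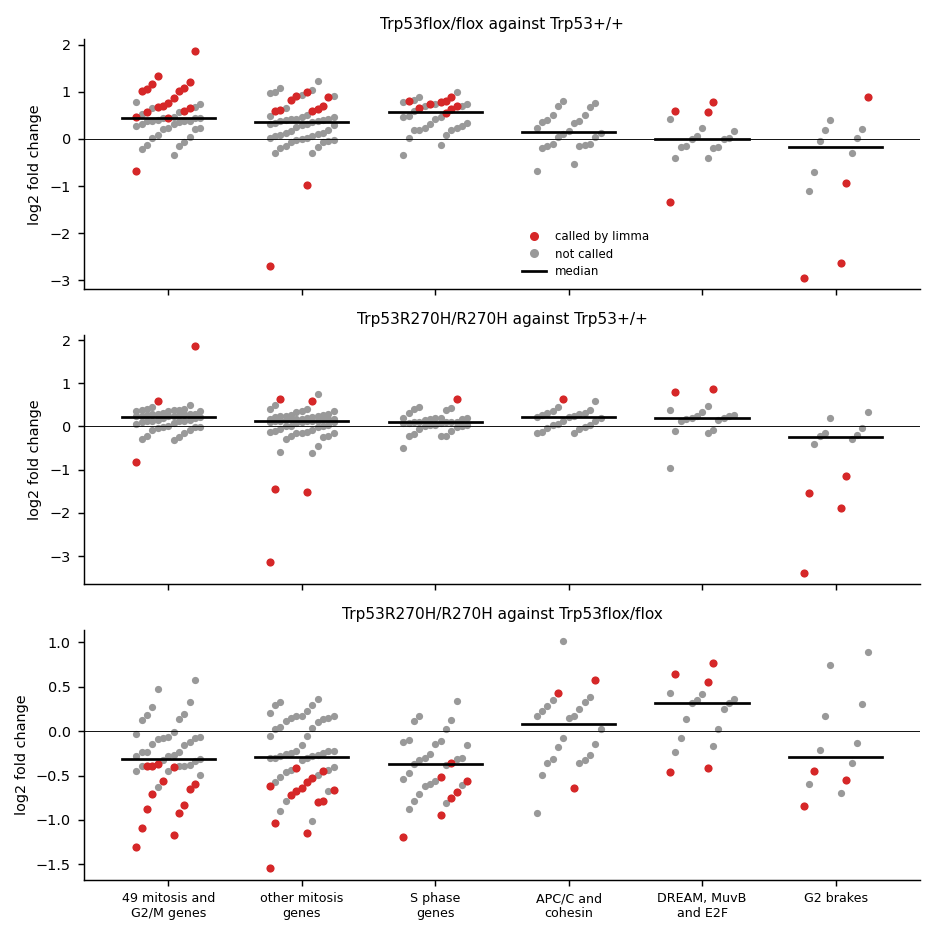
Each point is the log2 fold change of 1 gene on the log2(RPKM + 1) scale in the 49 members and 5 other lists (red, called by limma; grey, not called), with a line at the median of each list, for the 3 comparisons from top to bottom. Members, other mitosis genes and S phase genes have medians of 0.43, 0.35 and 0.57 in flox/flox against +/+ and of 0.22, 0.13 and 0.10 in R270H/R270H against +/+.

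Several members share exons with a neighbouring gene, so that their RPKM may hold reads of both. In GENCODE M21, 14 of the 49 do. The overlap is on the same strand for Foxm1 with Tex52, for Ncapd2 with Scarna10 and for Top2a with a snoRNA gene, and on the opposite strand for the others, among them Cdc20 with Elovl1, Ube2c with Tnnc2, Cdc25b with Spef1, Kif20a with Cdc23, Ncapg with Lcorl, and Plk1 and Nek2 with short unnamed genes. The kit marks strand, and whether the counting used it is not stated. Of the 5 members on chromosome 11, which also holds Trp53, Aurkb lies 0.529 Mb from Trp53, Pttg1 26.2 Mb, Hmmr 28.8 Mb, Top2a 29.4 Mb and Birc5 48.3 Mb, and the median of the 831 genes tested on that chromosome was between 0.00 and 0.09 in the 4 mutant libraries.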

How the data were processed

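The 6 libraries were 2 for each of the 3 Trp53 genotypes, grouped by sample titles. Per the study's methods, libraries were made with a stranded poly(A) kit, and the deposited RPKM values were produced by the authors in StrandNGS from an mm10 alignment, whose version, annotation and filters are not given in the sources used here. No deposited value is below 1, so everything under 1 RPKM is unknown. Depth is unknown, so no counting interval is given.

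Genes under 4 RPKM in all libraries were dropped, and log2(RPKM + 1) of all 6 libraries was fitted with limma 3.58.1 in R 4.3.3 (lmFit, eBayes with trend, two-sided, no block), with Benjamini-Hochberg adjustment over the 10042 genes and calls at 0.05. This scale understates the change of low genes. Fold values in the text are ratios of mean RPKM. Python 3.11.15, pandas 2.3.3, numpy 2.4.6, scipy 1.17.1 and matplotlib 3.10.9 were used. Positions and transcript lengths (the longest principal transcript) came from GENCODE M21 on GRCm38, and promoters from RefSeq on GRCm38.p6. The code was tested on simulated data.

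Library values are given for each member called in at least 1 comparison and for Cdk1, Bub1, Top2a and Mki67, and other members are named as the highest, lowest or exception of their group. The members and lists were chosen with earlier results of these data known. The alternatives were a pseudocount of 0.1, no filter, median-of-ratios scaling, a weight for each genotype, a replicate block, fits of 2 genotypes at a time, and omission of each library. Removal of a trend on transcript length and a block in which the 2 R270H/R270H numbers were swapped were chosen after seeing the data.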

Additional observations from a re-analysis of the deposited data

How the results depend on the processing

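The directions of the member medians held under all alternatives run. For flox/flox against +/+, the 17 higher and 1 lower members became 4 and 0 with a weight for each genotype (0.349% and 1.15% of all genes tested), 3 and 0 with a replicate block (0.707% and 2.08%) and 0 and 0 in a fit of the 2 genotypes alone. They became 35 and 1 with the length trend removed, and with the R270H/R270H numbers of the replicate block exchanged 13 and 0 (3.76% and 4.93%). For R270H/R270H against +/+, the 2 higher and 1 lower became 26 and 5 with the weights (31.9% and 27.8% of all genes tested), 27 and 4 in the fit of the 2 genotypes alone, 0 and 1 with the replicate block (2.54% and 2.94%) and 9 and 1 without the length trend. For R270H/R270H against flox/flox, the 14 lower became 3, 5, 1 and 22 with the weights, the replicate block, the 2 genotypes alone and no length trend (1.56%, 4.86%, 1.20% and 14.9% of all genes tested called lower), and 9 with the exchanged block (10.9%). The causes were not tested.

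Leaving out 1 library moved the higher and lower counts between 0 and 41 and between 0 and 7 in flox/flox against +/+, between 0 and 27 and between 0 and 4 in R270H/R270H against +/+, and between 0 and 8 and between 0 and 30 in R270H/R270H against flox/flox. The medians ranged from 0.43 to 0.48, from 0.19 to 0.22 and from -0.36 to -0.26. The median was 0.46 and -0.33 with a pseudocount of 0.1 (flox/flox against +/+, R270H/R270H against flox/flox), 0.20 and -0.34 with median-of-ratios scaling (R270H/R270H against +/+, against flox/flox), and 0.56, 0.19 and -0.36 without the length trend. A pseudocount of 0.1, no filter and median-of-ratios scaling left the counts of calls within 1.5 times. The log2 change without flox/flox replicate 1 and without flox/flox replicate 2 was 0.53 and -0.94 for Mki67 and 0.25 and -0.55 for Top2a in flox/flox against +/+, and 0.56 and -0.58 for Pttg1 and -0.20 and 0.59 for Top2a in R270H/R270H against flox/flox.

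Deviations of same-numbered libraries from their group means correlated at 0.12 between +/+ and flox/flox, -0.29 between +/+ and R270H/R270H and -0.20 between flox/flox and R270H/R270H, so the numbers were not taken to pair libraries. With 2 libraries a genotype and a flox/flox pair that differs with transcript length, single adjusted p-values near 0.05 are the least firm, and the depth behind them is unknown.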
